A study of Mus musculus with 12 samples.

Results

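The MYC network genes Myc, Max, Mnt, Mga, Mlx, Mxi1, Mxd1, Mxd3 and Mxd4 were taken by gene symbol from a table of RNA expression for 12151 genes, and all 9 had a row. Expression was measured by sequencing of polyadenylated RNA in 12 libraries of mouse pre-B cells carrying the BCR-ABL1 oncogene, which serve as B cell acute lymphoblastic leukemia (B-ALL) cells. They were grown from bone marrow of mice aged 6 to 12 weeks, expanded in IL-7 and transduced with a retrovirus for BCR-ABL1. All groups carry Ctnnb1Ex3fl/+, in which exon 3 of one copy of the β-catenin gene is flanked by loxP sites, and excision of this exon by Cre removes the sites that mark β-catenin for degradation.

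The cells had been electroporated with Cas9 ribonucleoproteins carrying a non-targeting guide (sgNTC, called WT here) or guides against Ikzf1 and Ikzf3 (sgIkzf1 Ikzf3, called KO here as labelled). Lines were then grown from single cells and transduced with a GFP vector for ERT2, a receptor domain that binds tamoxifen and served as control, or for its fusion Cre-ERT2, a Cre recombinase that becomes active with 4-hydroxytamoxifen (4-OHT). Both genotypes with both vectors make 4 groups of 3 libraries each, named ERT2 WT and Cre-ERT2 WT for one genotype and likewise for KO. A β-catenin difference below is Cre-ERT2 against ERT2 libraries of the same genotype. All groups carry the loxP-flanked exon, so active Cre or the vector cannot be told apart from stabilized β-catenin. The treatment protocol gives 1 day after 4-OHT, in a sentence about chromatin work. The labels do not say how many clones stand behind a genotype or whether replicates are separate cultures, so p-values measure the spread between these libraries, which may be technical, and differences between clones cannot be told apart from differences between genotypes.

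Values are the log2 normalized expression of the authors, and a difference between groups is a difference of log2 values with its standard error. Sequencing depth is unknown, because the table holds no counts, so the precision of a value rests on its 3 replicates. Library medians lay between 9.06 and 9.11. Ikzf1 did not fall in the libraries labelled KO: it ranged from 13.66 to 13.75 in the WT libraries and from 14.56 to 14.76 in the KO libraries, while Ikzf3 ranged from 11.59 to 11.93 and from 10.97 to 11.34. RNA level does not test for a small deletion or insertion, so these values do not check the edit. Ctnnb1 lay between 12.43 and 12.78 in all libraries, and its total RNA does not report the excision of exon 3. Esr1, part of which the vectors encode, averaged 12.72 in ERT2 WT, 10.56 in Cre-ERT2 WT, 12.28 in ERT2 KO and 10.25 in Cre-ERT2 KO libraries.

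The pre-B label was met by B lineage markers: all 15 listed markers had values and 14 averaged at least 8 in each group. Their summed level (log2 of the sum) was 17.32 to 17.33 in ERT2 WT, 17.35 to 17.37 in Cre-ERT2 WT, 16.81 to 16.82 in ERT2 KO and 16.78 to 16.79 in Cre-ERT2 KO libraries. Of 12 T and NK cell markers, 4 had values (Cd5, Cd28, Klrb1c and Nkg7), with sums of 8.20 to 8.21, 8.49 to 8.57, 9.28 to 9.34 and 10.03 to 10.08 in the same order of groups. Of 12 myeloid markers, Lyz2 and Itgam had values, with sums of 7.60 to 7.62, 7.57 to 7.60, 8.45 to 8.53 and 8.65 to 8.76. The CD3 chains, Mpo, Elane and all 12 erythroid, megakaryocyte and stromal markers were not analysed here. These sums move with the KO label as several network genes do. They also differ between the vector arms, most for the T and NK markers, and their part in the results was not tested. In such bulk samples, fewer cells of a type and less RNA per cell cannot be told apart.

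MYC is a basic helix-loop-helix leucine zipper transcription factor that binds DNA as a dimer with MAX, at the E-box CACGTG, and raises genes of ribosome production, nucleotide synthesis and metabolism. MAX also pairs with the MXD proteins, MXI1 and MNT, which bind the same E-box, bring in SIN3 and histone deacetylases and thereby oppose MYC, and with MGA, a subunit of the Polycomb complex PRC1.6. MLX is the counterpart of MAX for the glucose sensors MLXIP and MLXIPL and can also pair with MNT and with some MXD proteins. Pre-B cells and B-ALL cells depend on MYC for growth, and Ikaros factors, the products of Ikzf1 and Ikzf3, restrain Myc during B cell development.

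The network genes lie on separate chromosomes except for Mnt and Mlx, which are both on chromosome 11. In the GRCm38 annotation, Myc is at chr15:61985391-61990374 on the plus strand, Max at chr12:76937269-76962201 on the minus strand, Mnt at chr11:74830920-74845725 on the plus strand, Mga at chr2:119897228-119969581 on the plus strand and Mlx at chr11:101087277-101092207 on the plus strand. Mxi1 is at chr19:53310518-53375810 on the plus strand, Mxd1 at chr6:86647042-86669161 on the minus strand, Mxd3 at chr13:55325168-55329823 on the minus strand and Mxd4 at chr5:34173883-34187720 on the minus strand. The 3′ end of Mlx overlaps Psmc3ip and that of Mxd3 overlaps Prelid1, each on the opposite strand and each in the table. The libraries came from a stranded kit, and whether the quantification used the strand is not given in the sources used here.

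The E-box through which the network acts also occurs in promoters of its own members. RefSeq promoters of GRCm38.p6, 250 bases before to 50 bases after a gene start, were at hand for 8 of the 9 genes in 10 windows, with none for Myc. The E-box CACGTG, the same on both strands, was in the windows of 4 genes (Max, Mnt, Mlx and Mxd4) and in 7.15% of all 32851 promoters. The 36 bases around it are shown for these 4 genes, 5′ to 3′ on the strand of the gene, with the E-box in capitals. They are chr12:76962231-76962266 (Max, minus strand, crossing the RefSeq start, which lies upstream of the start of Max in the annotation quoted above), chr11:74830786-74830821 (Mnt, plus strand), chr11:101087235-101087270 (Mlx, plus strand) and chr5:34187909-34187944 (Mxd4, minus strand).
Max: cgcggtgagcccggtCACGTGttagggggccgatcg
Mnt: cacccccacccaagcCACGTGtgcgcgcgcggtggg
Mlx: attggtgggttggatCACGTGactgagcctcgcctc
Mxd4: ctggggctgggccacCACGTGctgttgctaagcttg

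The core of the Ikaros motif, GGGAA on either strand, was in windows of Mxd1, Mnt, Mxd3 and Mxi1 and in 62.7% of all promoters. The upstream windows of Mxi1 (the first of its 3 windows, chr19:53310256-53310505, plus strand) and Mxd3 (chr13:55329824-55329981, minus strand) are shown because these 2 genes differed most between KO and WT libraries among the genes with this motif, with GGGAA or its reverse complement TTCCC in capitals. The Mxd3 sequence is cut to 158 bases at the annotated start of Mxd3. A further match, at -92 from its RefSeq start, lies past the cut. Another Mxi1 window, not shown, holds a match at -28. The TCF/LEF core CTTTGA, on either strand, was in none of the 10 windows and in 16% of all promoters. The searched motifs share no letters in these windows. A match is a description of the letters and not a binding site.
Mxi1: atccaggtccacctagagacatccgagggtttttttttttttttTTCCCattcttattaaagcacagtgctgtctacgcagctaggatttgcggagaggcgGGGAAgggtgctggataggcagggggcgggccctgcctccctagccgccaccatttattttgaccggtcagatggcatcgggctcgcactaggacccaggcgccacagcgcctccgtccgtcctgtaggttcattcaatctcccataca
Mxd3: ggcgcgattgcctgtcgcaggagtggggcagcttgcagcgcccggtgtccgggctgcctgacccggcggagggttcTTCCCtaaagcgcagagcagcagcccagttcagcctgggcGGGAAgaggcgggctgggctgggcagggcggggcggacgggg

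Myc RNA was lowest in Cre-ERT2 WT libraries and highest in ERT2 KO libraries. Its log2 values were 12.22, 12.22 and 12.20 in ERT2 WT, 11.56, 11.62 and 11.58 in Cre-ERT2 WT, 13.30, 13.31 and 13.31 in ERT2 KO and 13.00, 12.99 and 13.01 in Cre-ERT2 KO libraries. No 2 groups overlapped, and the order from high to low was ERT2 KO, Cre-ERT2 KO, ERT2 WT and Cre-ERT2 WT. The lowest KO library stood above the highest WT library whichever vector it carried.

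With stabilized β-catenin (Cre-ERT2 against ERT2), Myc fell by 0.62 on the log2 scale in WT cells (SE 0.0193, limma adjusted p = 6.69e-10) to 0.649 of the control level. In KO cells it fell by 0.31 (SE 0.0193, adjusted p = 3.11e-07), to 0.807 of the control level. On this log2 scale the fall was smaller in KO than in WT cells by 0.31 (95% interval 0.25 to 0.37, adjusted p = 2.7e-05). In ERT2 libraries Myc was 1.10 higher in KO than in WT (SE 0.0193, adjusted p = 1.55e-13), or 2.14-fold, and in Cre-ERT2 libraries 1.41 higher (adjusted p = 1.93e-14), or 2.66-fold. Myc ranked 29th of 12151 genes by the size of the β-catenin difference in WT cells and 212th in KO cells. The exact permutation test over 3 against 3 libraries gave its smallest possible p of 0.1 for each of these 4 pairs of groups.

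**Figure D1:**
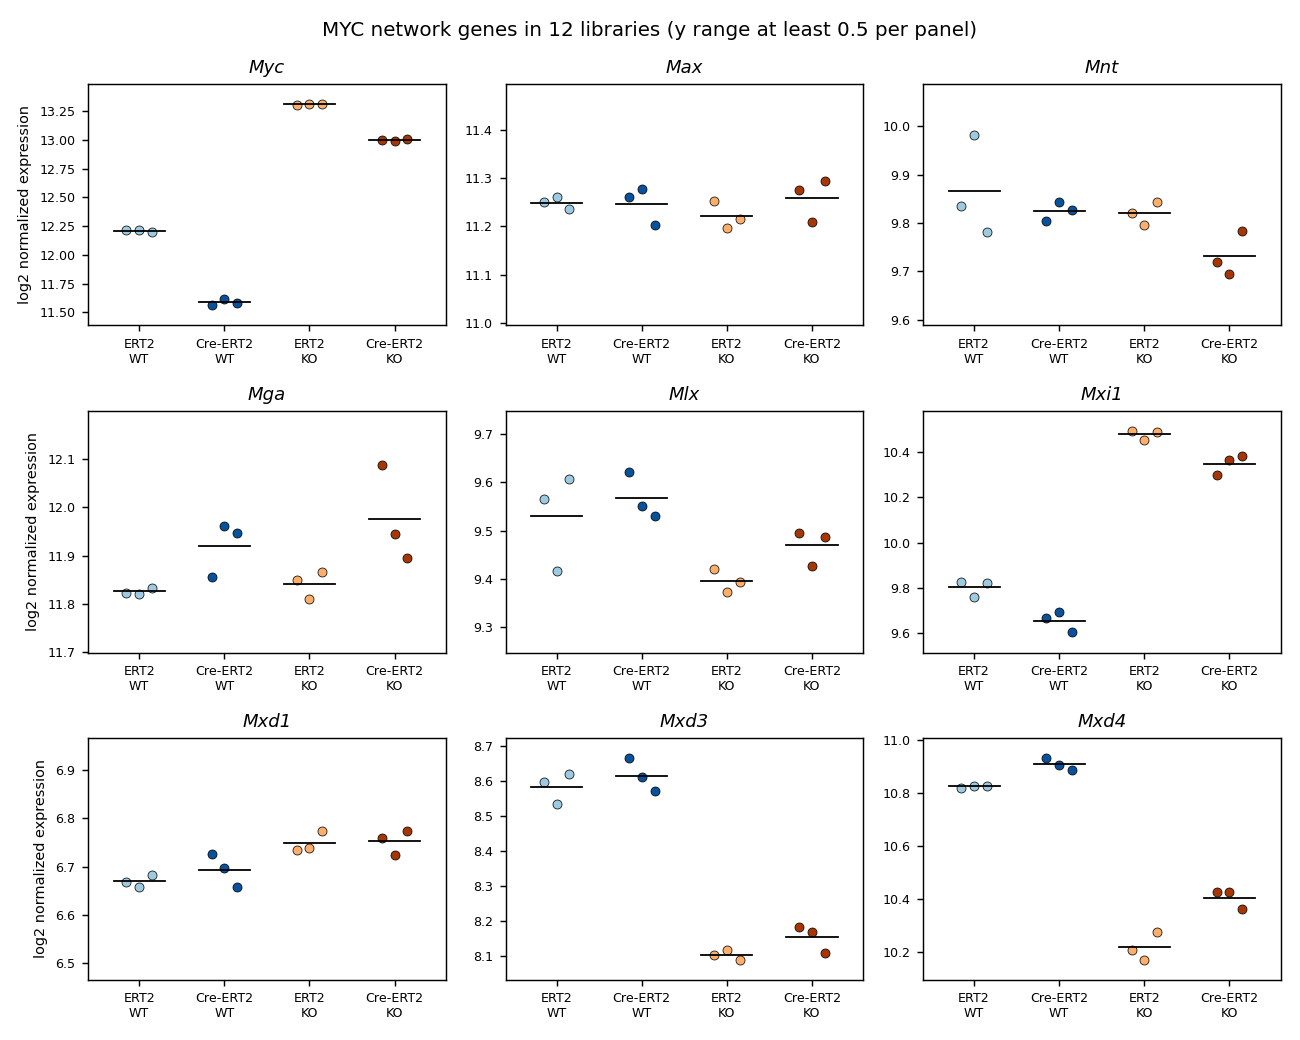
Log2 normalized expression of the 9 network genes in the 12 libraries, with 1 point per library and a line at each group mean of 3 libraries, on a y axis that differs between panels. Myc runs from 11.56 in a Cre-ERT2 WT library to 13.31 in ERT2 KO libraries without overlap between groups, Mxi1, Mxd3 and Mxd4 part KO from WT libraries, and Max lies between 11.20 and 11.29 throughout.

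Max, the shared partner, kept within a narrow range. It read 11.25, 11.26 and 11.24 in ERT2 WT, 11.26, 11.28 and 11.20 in Cre-ERT2 WT, 11.25, 11.20 and 11.21 in ERT2 KO and 11.27, 11.21 and 11.29 in Cre-ERT2 KO libraries. All 4 groups overlapped. No comparison called Max: the log2 differences were -0.0022 (95% interval -0.06 to 0.06) for β-catenin in WT cells, 0.04 (-0.02 to 0.10) in KO cells, -0.03 (-0.09 to 0.03) for KO against WT in ERT2 libraries and 0.01 (-0.05 to 0.07) in Cre-ERT2 libraries.

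Among the MAX partners that oppose MYC, Mxi1 was higher and Mxd4 and Mxd3 were lower in the KO libraries. Mxi1 encodes a SIN3-recruiting repressor of the MXD group. Its values were 9.83, 9.76 and 9.82 in ERT2 WT, 9.67, 9.69 and 9.60 in Cre-ERT2 WT, 10.49, 10.45 and 10.49 in ERT2 KO and 10.30, 10.36 and 10.38 in Cre-ERT2 KO libraries. The 4 groups did not overlap and stood in the same order as for Myc.

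Mxi1 was 0.68 higher in KO than in WT in ERT2 libraries (SE 0.0321, adjusted p = 1.72e-09), which is 59.8% more RNA, and 0.69 higher in Cre-ERT2 libraries (adjusted p = 1.29e-09). With stabilized β-catenin it fell by 0.15 in WT cells (SE 0.0321, adjusted p = 0.00981) and by 0.13 in KO cells (adjusted p = 0.0192). The call in KO cells did not hold without ERT2 KO replicate 1 (adjusted p = 0.0655), ERT2 KO replicate 3 (0.0636) or Cre-ERT2 KO replicate 1 (0.0716). The 2 falls differed by 0.02, with a 95% interval from -0.08 to 0.12 (adjusted p = 0.901).

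Mxd4, a further MXD repressor, read 10.82, 10.82 and 10.83 in ERT2 WT, 10.93, 10.90 and 10.89 in Cre-ERT2 WT, 10.21, 10.17 and 10.28 in ERT2 KO and 10.43, 10.43 and 10.36 in Cre-ERT2 KO libraries. The order of the 4 groups was the reverse of that of Myc, without overlap. Mxd4 was lower in KO libraries by 0.61 in the ERT2 arm (log2 difference -0.61, SE 0.0296, adjusted p = 2.25e-09) and by 0.50 in the Cre-ERT2 arm (log2 difference -0.50, adjusted p = 1.39e-08). It rose by 0.19 with stabilized β-catenin in KO cells (SE 0.0296, adjusted p = 0.00107). In WT cells the difference was 0.08 (adjusted p = 0.0968), not called with all 12 libraries in the fit and called with only the 6 WT libraries (adjusted p = 0.0441). The 2 differences were 0.10 apart (95% interval 0.01 to 0.20, adjusted p = 0.216).

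Mxd3, whose protein is known from proliferating cells, read 8.60, 8.53 and 8.62 in ERT2 WT, 8.67, 8.61 and 8.57 in Cre-ERT2 WT, 8.10, 8.12 and 8.09 in ERT2 KO and 8.18, 8.17 and 8.11 in Cre-ERT2 KO libraries. The KO libraries lay below all WT libraries, and the vector arms overlapped within each genotype. KO against WT gave log2 differences of -0.48 in ERT2 (SE 0.0336, adjusted p = 7.39e-08) and -0.46 in Cre-ERT2 libraries (adjusted p = 1.02e-07). The β-catenin differences of 0.03 in WT and 0.05 in KO cells were not called (adjusted p = 0.629 and 0.403).

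Mxd1 and Mnt showed small differences. Mxd1, a repressor linked to differentiation, had values of 6.66 to 6.68 in ERT2 WT, 6.66 to 6.73 in Cre-ERT2 WT, 6.74 to 6.77 in ERT2 KO and 6.72 to 6.77 in Cre-ERT2 KO libraries. It was 0.08 higher in KO than in WT in ERT2 libraries (SE 0.0252, adjusted p = 0.0168), a call that was lost when each library was centred on its median (adjusted p = 0.136), without ERT2 WT replicate 2 (0.053) or ERT2 KO replicate 3 (0.0645), and that turned to -0.0085 under quantile normalization. In Cre-ERT2 libraries the difference of 0.06 missed the threshold (adjusted p = 0.0608), was called under 4 of 21 alternatives (lowest adjusted p = 0.0344) and turned to -0.04 under quantile normalization.

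Mnt, the MAX partner present in most cell types, was not called in any comparison. It read 9.84, 9.98 and 9.78 in ERT2 WT, 9.80, 9.84 and 9.83 in Cre-ERT2 WT, 9.82, 9.80 and 9.84 in ERT2 KO and 9.72, 9.69 and 9.78 in Cre-ERT2 KO libraries. The 3 Cre-ERT2 KO libraries lay below the 3 Cre-ERT2 WT libraries (log2 difference -0.09, adjusted p = 0.0891), and ERT2 WT replicate 2 lay highest of all. Without that replicate in the fit, this difference had an adjusted p of 0.0193.

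Mga and Mlx, the members at the edges of the network, differed by small amounts. Mga, which ties MAX to PRC1.6, read 11.82, 11.82 and 11.83 in ERT2 WT, 11.86, 11.96 and 11.95 in Cre-ERT2 WT, 11.85, 11.81 and 11.87 in ERT2 KO and 12.09, 11.95 and 11.89 in Cre-ERT2 KO libraries. Each Cre-ERT2 group lay above its ERT2 control without overlap, by 0.09 in WT (adjusted p = 0.196) and 0.13 in KO cells (adjusted p = 0.0648), and neither difference was called. Without Cre-ERT2 KO replicate 3 the difference in KO cells was 0.17 (adjusted p = 0.0198).

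Mlx was 9.42 to 9.61 in ERT2 WT, 9.53 to 9.62 in Cre-ERT2 WT, 9.37 to 9.42 in ERT2 KO and 9.43 to 9.50 in Cre-ERT2 KO libraries. It was lower in KO than in WT in ERT2 libraries (log2 difference -0.13, SE 0.0448, adjusted p = 0.0215) although ERT2 WT replicate 2, at 9.42, overlapped the KO values. That call was lost without ERT2 WT replicate 1 (adjusted p = 0.0761), ERT2 WT replicate 3 (0.0979), ERT2 KO replicate 2 (0.0665) or ERT2 KO replicate 3 (0.0519). In Cre-ERT2 libraries the difference of -0.10 was not called (adjusted p = 0.0778), and it was called when each library was centred on its median (adjusted p = 0.0218) or when the replicate number entered as a block (adjusted p = 0.043).

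**Figure D2:**
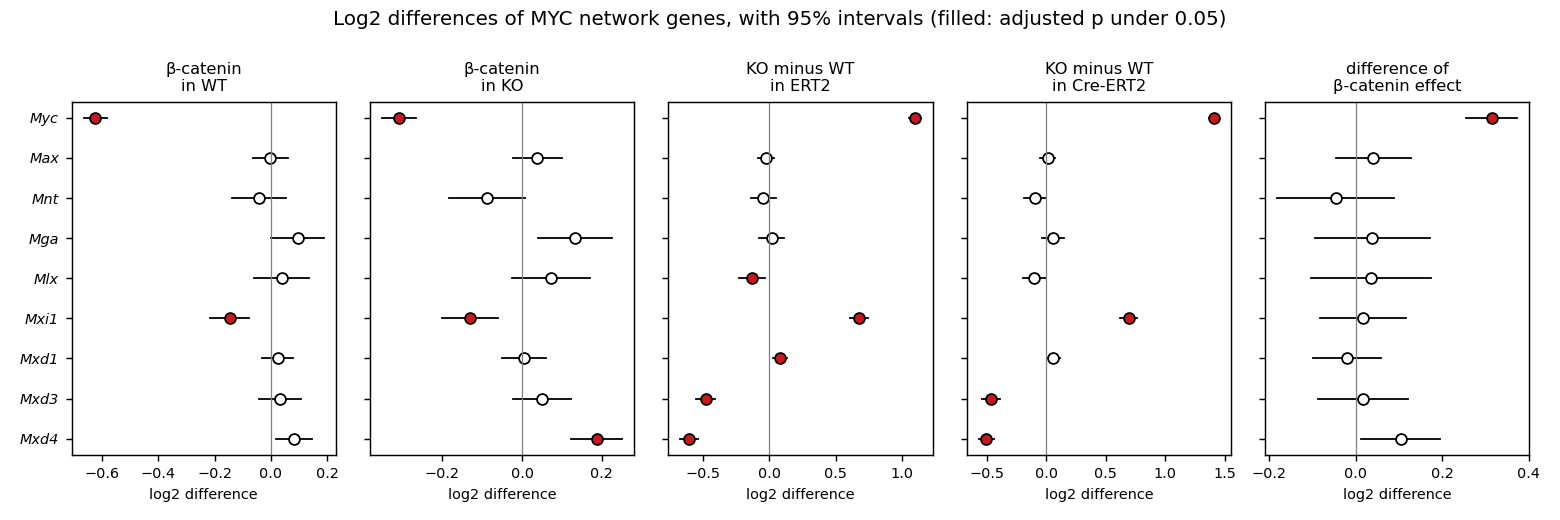
Log2 differences of the 9 network genes in the 5 comparisons, with 95% intervals as horizontal lines and filled points for an adjusted p under 0.05, on an x axis that differs between panels. Myc is called in all 5 panels and is the only gene called in the last one, at 0.31, while Max has an interval across 0 in each.

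Counted over the network, 2 of 9 genes were called for β-catenin in WT cells (Myc and Mxi1), where 11.9% of all 12151 genes were called, 5.93% higher and 5.95% lower. In KO cells 3 of 9 were called (Myc and Mxi1 lower, Mxd4 higher), where 12.6% of all genes were, 7.27% higher and 5.33% lower. For KO against WT, 6 of 9 were called in ERT2 libraries, 3 in each direction, where 59.0% of all genes were, 29.8% higher and 29.3% lower. In Cre-ERT2 libraries 4 of 9 were called, 2 in each direction, where 58.9% of all genes were, 30.4% higher and 28.6% lower. Centring each library on its median added Mnt and Mlx in Cre-ERT2 libraries, for 6 of 9, and moved the split of all genes called there from 3688 higher and 3473 lower to 2983 higher and 4789 lower. In ERT2 libraries the split of all genes moved from 3616 higher and 3559 lower to 2866 higher and 4747 lower. The β-catenin difference was called as unequal between KO and WT cells for Myc alone of the 9, and for 4.53% of all genes, 2.71% with a positive and 1.82% with a negative difference.

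For KO against WT, the groups did not overlap for 5 of 9 network genes in ERT2 libraries, where 65.5% of all genes did not, and for 6 of 9 in Cre-ERT2 libraries, where 63.6% did not. For β-catenin they did not overlap for 4 of 9 in WT cells (Myc, Mxi1, Mxd4 and Mga), where 31.1% of all genes did not, and for 6 of 9 in KO cells (the same genes with Mnt and Mlx), where 28.3% did not. The comparisons share libraries, since each group enters 2 of the first 4 and all groups enter the last. The median gene of the whole table moved by 0.0016 or less in the 4 comparisons of groups, so the differences of Myc, Mxi1, Mxd3 and Mxd4 stand against a table centred near 0.

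To compare levels between genes, the unlogged values were divided by the length of each gene's exons. On this scale of units per kb, Myc was the highest and Max the second highest of the 9 genes in all 4 groups, and Mxd1 the lowest, also with the longest coding transcript as length. The order of the others depended on the length used. Myc stood at 1745 ± 11.4 units per kb in ERT2 WT, 1133 ± 23.8 in Cre-ERT2 WT, 3734 ± 10.0 in ERT2 KO and 3012 ± 15.5 in Cre-ERT2 KO libraries (SD, n = 3). In these unlogged units the fall of Myc with stabilized β-catenin was not smaller in KO than in WT cells.

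The 5 antagonists Mxd1, Mxd3, Mxd4, Mxi1 and Mnt summed to 723 ± 6.50 units per kb in ERT2 WT, 720.7 ± 11.2 in Cre-ERT2 WT, 676.1 ± 10.1 in ERT2 KO and 670.2 ± 3.01 in Cre-ERT2 KO libraries. Their sum therefore lay lower in every KO library than in every WT library, from 665.6 to 685.7 against 707.9 to 730.1. Myc over this sum was 2.41 ± 0.0163 in ERT2 WT, 1.57 ± 0.0390 in Cre-ERT2 WT, 5.52 ± 0.0916 in ERT2 KO and 4.50 ± 0.0274 in Cre-ERT2 KO libraries. With the longest coding transcript as length these ratios were 1.75, 1.12, 4.26 and 3.39. They are RNA ratios on the authors' scale, given as a description with no test.

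The makeup of the antagonist sum differed between the genotypes. Mxi1 made up 18.1% ± 0.622 of it in ERT2 WT, 16.4% ± 0.310 in Cre-ERT2 WT, 30.9% ± 0.240 in ERT2 KO and 28.5% ± 0.736 in Cre-ERT2 KO libraries. Mxd4 made up 29.6% ± 0.277, 31.4% ± 0.235, 20.8% ± 0.484 and 23.9% ± 0.709 in the same order. Mxd4 thus led Mxi1 in the WT libraries and followed it in the KO libraries. With the longest coding transcript as length, Mxd4 stayed ahead in all groups, at 30.2% against 27.8% for Mxi1 in ERT2 KO libraries. Mnt kept 27.2% to 28.9% of the sum on exon length and Mxd1 2.0% to 2.3%.

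**Figure D3:**
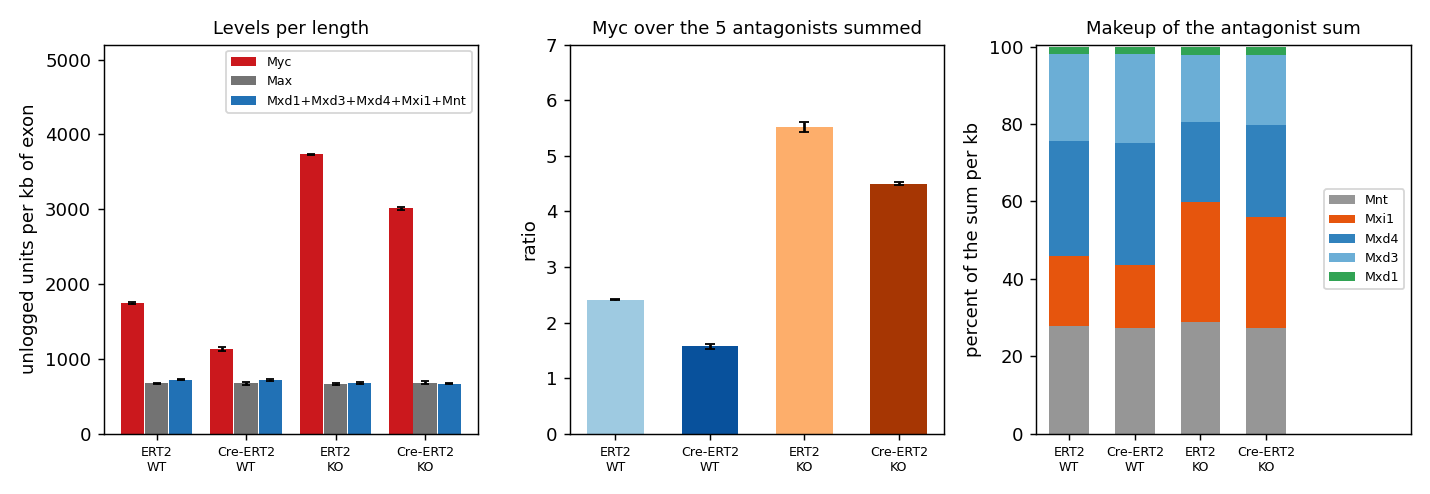
Levels per kb of exon for Myc, Max and the summed antagonists (left), Myc over that sum (middle) and the percent of the sum held by each antagonist (right), as means of 3 libraries per group with SD bars in the left and middle panels. Myc over the sum runs from 1.57 in Cre-ERT2 WT to 5.52 in ERT2 KO libraries, while the sum itself lies between 670.2 and 723 units per kb.

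Across the 12 libraries Myc and Mxi1 had a Pearson r of 0.979, Myc and Mxd4 of -0.967, Myc and Mxd3 of -0.947 and Myc and Max of -0.177. Mxi1 and Mxd4 had an r of -0.984. These values follow the 4 group means, mostly the step between WT and KO libraries, and are descriptions. The genes of the table whose centred log2 values were nearest to those of Myc, by root mean square difference over 12 libraries, were Car2 (0.123), Nefh (0.146), Ass1 (0.155), D8Ertd82e (0.170) and Deptor (0.175). Car2, a carbonic anhydrase, averaged 12.66 in ERT2 WT and 12.28 in Cre-ERT2 WT libraries, and 13.94 in ERT2 KO and 13.77 in Cre-ERT2 KO libraries. Nefh, a neurofilament gene, averaged 10.13, 9.89, 11.31 and 11.11 in the same groups. These genes were chosen for this likeness.

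Of 40 genes that MYC is known to activate, all of which had values, 27 were called for β-catenin in WT cells and all 27 were lower, beside 11.9% of all genes called and 5.95% called lower. Their median log2 difference was -0.13 against 0 for all genes. Srm, which makes spermidine, fell by 0.37 (log2 difference -0.37), Polr1b, a subunit of RNA polymerase I, by 0.24 (-0.24), Hspd1, a mitochondrial chaperone, by 0.21 (-0.21) and Slc19a1, a folate carrier, by 0.20 (-0.20). The adjusted p of these 4 genes ran from 7.59e-06 for Srm to 0.00301 for Slc19a1.

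In KO cells 15 of the 40 were called, 14 lower and 1 higher, with a median of -0.06, beside 12.6% of all genes called and 5.33% called lower. Without ERT2 KO replicate 1, 9 were called. Mthfd2 and Shmt2, of mitochondrial folate metabolism, fell by 0.24 and 0.21 (log2 differences -0.24 and -0.21) and Slc7a5, an amino acid carrier, by 0.23 (-0.23). Ccnd2, which encodes cyclin D2, rose by 0.32 in KO cells (adjusted p = 7.28e-06) and fell by 0.15 in WT cells (adjusted p = 0.00316). Of the 27 genes lower in WT cells and the 14 lower in KO cells, 12 were the same, which is 12 of 27 and 12 of 14. The same overlap over all genes was not computed, so it is not known whether this list differs from other genes.

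The β-catenin difference was called as unequal between KO and WT cells for 4 of the 40 genes, beside 4.53% of all genes. These were Ccnd2 (0.47), Srm (0.21), Gnl3 (0.15) and Mthfd2 (-0.16), where a positive value means a smaller fall or a rise in KO cells. Under quantile normalization 1 was called higher and 2 lower. At an unadjusted limma p under 0.05 were 16 of the 40, 14 with a positive and 2 with a negative difference. The median difference of the 40 was 0.06 against 0.0011 for all genes. For Srm, the libraries read 11.51, 11.45 and 11.48 in ERT2 WT, 11.14, 11.09 and 11.08 in Cre-ERT2 WT, 11.44, 11.39 and 11.36 in ERT2 KO and 11.27, 11.24 and 11.18 in Cre-ERT2 KO libraries. Srm was 0.08 lower in KO than in WT with ERT2 (log2 difference -0.08, adjusted p = 0.0416) and 0.13 higher with Cre-ERT2 (adjusted p = 0.004). The first of these calls was lost under quantile normalization (adjusted p = 0.356), as was the unequal β-catenin difference of Srm (adjusted p = 0.0506). Leaving out 1 library ended the first call in 5 fits (highest adjusted p = 0.155) and the unequal difference in 6 (highest adjusted p = 0.0573). The unequal difference of Gnl3 was lost under quantile normalization (adjusted p = 0.127) and when any of 11 of the 12 libraries was left out (highest adjusted p = 0.0985).

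Between genotypes, 21 of the 40 were higher and 7 lower in KO than in WT with ERT2 (median 0.09), and 29 higher and 4 lower with Cre-ERT2 (median 0.14). Of all genes, 59.0% were called with ERT2 (29.8% higher and 29.3% lower) and 58.9% with Cre-ERT2 (30.4% higher and 28.6% lower). Odc1, the first enzyme of polyamine synthesis, was 0.99 and 0.98 higher in KO libraries, and Pkm, of glycolysis, 0.79 and 0.78 higher. Hk2, which traps glucose in the cell, was 0.78 and 0.73 higher. Ccnd2 was lower, at -1.15 and -0.68, as was Tfrc, the transferrin receptor, at -0.92 and -0.75. The 40 genes thus moved in both directions, with Myc higher in every KO library.

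**Figure D4:**
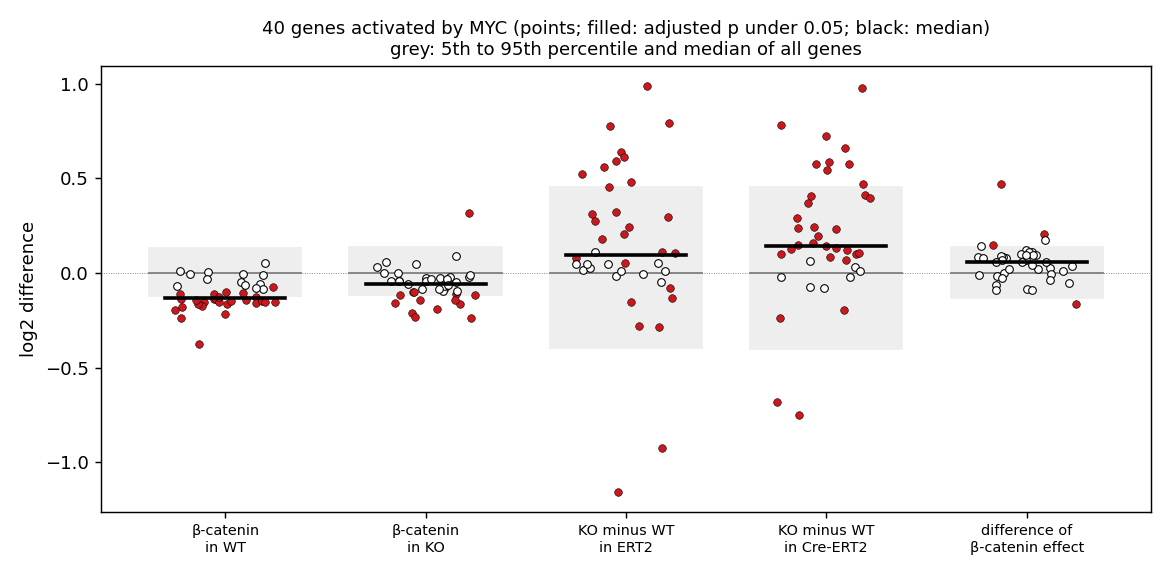
Log2 differences of 40 genes known to be activated by MYC in the 5 comparisons, with 1 point per gene, filled for an adjusted p under 0.05, a black line at the median of the 40 and a grey band for the range of most genes of the table. The medians are -0.13 and -0.06 for β-catenin in WT and KO cells and 0.09 and 0.14 for KO against WT, and the points of the KO comparisons spread from -1.15 to 0.99.

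Genes that MYC is known to repress through MIZ1 or MAX moved in both directions. Of 16 listed, 12 had values, and 4 were called for β-catenin in WT cells (2 higher and 2 lower), beside 11.9% of all genes. In KO cells 7 were called (4 higher and 3 lower, or 3 and 4 under quantile normalization), beside 12.6%. Klf2, a quiescence factor of lymphocytes, fell by 0.28 and 0.42 (log2 differences -0.28 and -0.42) and Cdkn1a, a cell cycle inhibitor, by 0.15 and 0.17 (-0.15 and -0.17). Gadd45a, a stress response gene, rose by 0.38 in KO cells, and its β-catenin difference was 0.31 larger there than in WT cells (adjusted p = 0.00288). In the KO libraries, 6 were higher and 5 lower than in WT with ERT2 (4 and 6 with each library centred on its median), beside 59.0% of all genes called. With Cre-ERT2, 5 were higher and 5 lower, beside 58.9%. Ndrg1 was 2.14 and 2.12 higher in KO libraries, and Btg2 and Btg1, which restrain growth, were lower, at -1.55 and -1.31 for Btg2 and -0.83 and -0.88 for Btg1.

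Of 9 further MYC and MLX family genes, 7 had values. Mycn, a MYC paralog of early B cells, went against Myc. It read 10.25, 10.20 and 10.36 in ERT2 WT, 10.58, 10.40 and 10.47 in Cre-ERT2 WT, 9.78, 9.87 and 9.86 in ERT2 KO and 9.95, 9.99 and 10.00 in Cre-ERT2 KO libraries. Mycn rose by 0.22 with β-catenin in WT cells (adjusted p = 0.0106) and was lower in KO libraries, at -0.43 (adjusted p = 5.74e-06) and -0.50 (adjusted p = 1.33e-06). Its difference of 0.14 in KO cells was not called (adjusted p = 0.0743). Mlxip, the partner of MLX, was lower in KO libraries at -0.22 and -0.29, and Tfe3, a relative that serves lysosome genes, was 0.32 and 0.35 higher. Against WT, 2 of the 7 were higher and 4 lower in ERT2 KO libraries, beside 59.0% of all genes called. In Cre-ERT2 KO libraries 2 were higher and 3 lower, beside 58.9%. None of the 7 had a β-catenin difference that limma called unequal between genotypes, and 0 had an unadjusted p under 0.05.

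The medians of the 12 MYC-repressed genes and of the SIN3, PRC1.6, coactivator and turnover lists lay between -0.05 and 0.04 in the 4 comparisons of groups. For all genes they were 0.0016 or less in size. The SIN3-HDAC corepressor that MXD, MXI1 and MNT recruit was measured by 18 of 18 genes. β-catenin called 2 of them in WT cells (Rbbp4 at 0.10 and Hdac1 at 0.09), beside 11.9% of all genes. In KO cells it called 1 (Sap18 at -0.32), beside 12.6%. The call of Sap18 was lost in 4 fits that left out 1 library (highest adjusted p = 0.0719). Without ERT2 KO replicate 2 it stood at -0.20 (adjusted p = 0.063). The call of Hdac1 was lost under quantile normalization (adjusted p = 0.0787) and in 5 fits that left out 1 library (highest adjusted p = 0.136). Between genotypes, 4 were higher and 8 lower in KO in each vector arm, beside 59.0% of all genes called with ERT2 and 58.9% with Cre-ERT2. Sap30 stood at 0.49 and 0.49 and Ing2 at 0.29 and 0.34. Limma called 0 of the 18 as unequal between genotypes in their β-catenin difference, with 3 at an unadjusted p under 0.05.

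PRC1.6, the complex of MGA and MAX that silences germline genes, was measured by 16 of 16 genes. Rybp rose by 0.14 with β-catenin in both genotypes, and Hdac1, shared with the SIN3 list, was the other gene called in WT cells. These are 2 of 16 genes in WT and 1 of 16 in KO cells, beside 11.9% and 12.6% of all genes. Against WT, 4 were higher and 4 lower in ERT2 KO libraries, beside 59.0% of all genes called. In Cre-ERT2 KO libraries 2 were higher and 4 lower (4 and 3 under quantile normalization), beside 58.9%. Tfdp2 stood at 0.24 and 0.25 and L3mbtl2 at -0.22 and -0.23. Limma called 0 of the 16 as unequal between genotypes, with 0 at an unadjusted p under 0.05. Of 20 germline targets of PRC1.6, Zcwpw1 alone had values here, with -0.14 for β-catenin in WT cells and -0.42 and -0.27 for KO against WT. For β-catenin in KO cells it stood at 0.01 and was not called (adjusted p = 0.805). Limma called its 2 β-catenin differences as unequal (0.15, adjusted p = 0.0181), which was lost in 1 fit that left out a library (adjusted p = 0.0502).

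Coactivators and turnover factors of the MYC protein were called for β-catenin in 3 of 16 and 1 of 18 genes in WT cells (11.9% of all genes) and in 2 of 16 and 3 of 18 in KO cells (12.6%). The 3 coactivators in WT cells were Crebbp, an acetyltransferase, at 0.28, Kat2a at -0.13 and Ruvbl2 at -0.12, and the 2 in KO cells were Ruvbl2 at -0.13 and Ep300 at 0.10. The call of Ep300 was lost in 9 fits that left out 1 library. Without ERT2 KO replicate 2, Ep300 stood at 0.07 and was not called (adjusted p = 0.139). In ERT2 KO libraries, 3 coactivators were higher and 4 lower than in WT (4 and 2 under quantile normalization), beside 59.0% of all genes called. In Cre-ERT2 KO libraries 3 were higher and 6 lower (4 and 3), beside 58.9%. Ruvbl2, an ATPase of chromatin complexes, stood at 0.32 and 0.31. Of the turnover genes, Usp36, a deubiquitinase, was called in WT cells at -0.19, and Huwe1, a ubiquitin ligase, in KO cells at 0.18, a call that was lost without ERT2 KO replicate 2 (adjusted p = 0.0593). Between genotypes, 6 turnover genes were higher and 2 lower in KO with ERT2 (5 and 7 with each library centred on its median). With Cre-ERT2, 5 were higher and 2 lower (5 and 6), beside the same 59.0% and 58.9% of all genes. Usp28, a deubiquitinase of MYC, stood at 0.27 and 0.25. Limma called 0 genes of either list as unequal between genotypes, with 2 coactivators and 3 turnover genes at an unadjusted p under 0.05.

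Of 11 targets of MLX with MLXIP or MLXIPL, 5 had values. Txnip, which limits glucose uptake, was 11.72 in ERT2 WT, 11.74 in Cre-ERT2 WT, 11.71 in ERT2 KO and 11.54 in Cre-ERT2 KO libraries on average. It fell by 0.17 with β-catenin in KO cells (log2 difference -0.17, adjusted p = 0.0243). That call was lost in 3 fits that left out 1 library (adjusted p = 0.0977 without ERT2 KO replicate 3). The difference of 0.02 in WT cells was not called (adjusted p = 0.815). The 2 β-catenin differences of Txnip were not called as unequal (adjusted p = 0.115). Arrdc3, of the same protein family, was called at 0.15 in WT cells. That call was lost with each library centred on its median (adjusted p = 0.0501). It was also lost in 7 fits that left out 1 library (adjusted p = 0.164 without Cre-ERT2 WT replicate 3). Limma called 0 of the 5 as unequal between genotypes, with 1 at an unadjusted p under 0.05.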

How the data were processed

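RNA of 12 libraries in 4 groups of 3 was analysed. According to the study's methods and the submitters' processing notes, the authors ran Salmon 1.4.0 for transcript quantification on paired-end reads, aligned these with STAR 2.7.6 to mm10/GRCm38 and used DESeq2 1.30.1. The deposited table holds log2 values that the authors normalized between libraries, from 1.76 to 18.87, with neither counts nor fold changes. The transformation is not given in the sources used here. If it shrinks low values, it understates differences of weakly expressed genes such as Mxd1. Every per-sample column was matched to a library by its title.

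A linear model with 4 group means was fitted to the log2 values of the 12 libraries in R 4.3.3 with limma 3.58.1 (eBayes with a mean-dependent prior). P values were adjusted over 12151 genes by the Benjamini-Hochberg method, and adjusted values under 0.05 were called. The 5 contrasts were Cre-ERT2 against ERT2 in WT and in KO cells, KO against WT in each vector arm, and the difference of the first pair. Single genes were also compared with exact 2-sided permutation tests, which allow no p below 0.1. The fit was tested on simulated data. No filter on low values was applied.

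The network genes and the gene lists, written from general knowledge, were chosen with earlier results of these data known, so counts over a list are descriptions. All network genes are named in every contrast, and from each list up to 4 called genes with the largest differences, except for a gene that is not reported here. Exon lengths and positions came from the GENCODE annotation of GRCm38, and promoter sequences from RefSeq. Alternatives covered centring on library medians, quantile normalization, pseudocounts of 1 and 16 on the unlogged values, genes with a mean of at least 8, other priors, only the 6 libraries compared, a threshold of 0.01, a replicate block and leaving out each library.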

Additional observations from a re-analysis of the deposited data

Results flagged for a closer look

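The β-catenin difference of Myc was unequal between genotypes, by a test of the difference itself. Myc fell by 0.62 in WT cells and by 0.31 in KO cells on the log2 scale, and the effects were 0.3139 apart (SE 0.0273, limma adjusted p = 2.7e-05), with all 3 Cre-ERT2 libraries below all 3 ERT2 libraries in each genotype. No other of the 9 network genes had a called difference between genotypes in its β-catenin effect. The comparison is one of log2 values, and in unlogged units per kb the fall of Myc was not smaller in KO cells. Samples far from their group were not searched for, since groups of 3 are too small for it.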

How the results depend on the processing

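The calls of Myc in all 5 comparisons, of Mxd3 and Mxd4 for KO against WT, of Mxd4 for β-catenin in KO cells and of Mxi1 in 3 comparisons were the same under every alternative run. Of 45 results for single network genes, 24 kept direction and side of the threshold throughout, and 50 of 976 alternatives changed either, all for log2 differences of 0.17 or less in size, and the cause was not tested. At an adjusted p under 0.01, 787 genes were called for β-catenin with the WT genotype, 790 with the KO genotype and 240 for their difference, and the MYC-activated list had 8 called in KO cells and 1 for the difference. With only the 6 KO libraries, 934 genes were called for β-catenin, and with genes of a mean of at least 8, which leaves fewer genes, 337 for the difference.

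Signs reversed under quantile normalization for Max (β-catenin in WT 0.0019, KO against WT in ERT2 0.0059) and Mxd1 (β-catenin in KO -0.0099, KO against WT -0.0085 in ERT2 and -0.0355 in Cre-ERT2). Centring on medians reversed Mxd1 for β-catenin in KO (-0.0033), Mga for KO against WT in ERT2 (-0.0162) and Max in Cre-ERT2 libraries (-0.0212). Leaving out each library in turn gave ranges across 0 for β-catenin in WT cells in Max (-0.0175 to 0.0195), Mnt (-0.0841 to 0.0161) and Mlx (-0.0189 to 0.0766), and in KO cells in Mxd1 (-0.0068 to 0.0187). For KO against WT they were -0.0887 to 0.0115 for Mnt in ERT2, and -0.0093 to 0.0372 for Max and -0.0011 to 0.0957 for Mga in Cre-ERT2 libraries. For the difference of β-catenin effects they were -0.017 to 0.0798 for Mga, -0.0034 to 0.0922 for Mlx, -0.0087 to 0.0418 for Mxi1 and -0.005 to 0.043 for Mxd3. The MYC-activated genes called ranged from 9 to 15 in KO cells, with 9 without ERT2 KO replicate 1, and from 2 to 6 for the difference.

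Replicate numbers did not pair the samples: over 18 pairs of same-numbered libraries the correlation of deviations from group means ran from -0.101 to 0.244, and 1 exceeded 0.1. With the replicate number as a block, 1361, 1374, 7089, 7108 and 424 genes were called in the 5 comparisons against 1443, 1531, 7175, 7161 and 550, and the block changed the call of 1 network gene, Mlx for KO against WT in Cre-ERT2 libraries (-0.0982, adjusted p = 0.043). Applied, after the data were seen, to the 381 calls of 176 genes of the lists outside the network, the alternatives other than the stricter threshold ended 88 calls at least once, 74 of them when 1 library was left out, for differences of 0.32 or less in size. Among these were the β-catenin calls of Rbbp4, Kat2a, Ruvbl2, Hk2 and Fam84b in WT cells, of Slc19a1, Btg1, Btg2 and Fam84b in KO cells, and the unequal differences of Btg2 and Trib1. Without counts, depth cannot bound the smallest detectable difference.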

Other observations

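Of 20 genes that act on Myc transcription, all with values, 9 were called with stabilized β-catenin in WT cells (7 higher and 2 lower, beside 11.9% of all genes) and 10 in KO cells (6 higher and 4 lower, beside 12.6%). Prdm1, whose protein BLIMP1 represses Myc in B lineage cells, rose by 0.66 in WT cells (adjusted p = 2.2e-09) and by 0.65 in KO cells (adjusted p = 1.65e-09), and the 2 rises were not called as unequal (-0.02, adjusted p = 0.833). Tcf7, a DNA-binding partner of β-catenin, rose by 0.26 in WT and 0.85 in KO cells, and Irf4, which restrains pre-B cell growth, by 0.26 and 0.51. The β-catenin difference was unequal between genotypes for 6 of the 20 genes, beside 4.53% of all genes. It was 0.58 higher in KO cells for Tcf7 and 0.25 higher for Irf4, and lower for the other 4, at -0.19 for Ebf1 and -0.18 for Foxo1, both B lineage factors, at -0.16 for Tcf7l1 and at -0.10 for Ikzf1. The calls of Foxo1, Tcf7l1 and Ikzf1 were lost under the replicate block (adjusted p = 0.0621, 0.0705 and 0.083). They were also lost in 10, 10 and 11 fits that left out 1 library (highest adjusted p = 0.0898, 0.0962 and 0.106). Between genotypes, 5 of the 20 were higher and 8 lower in KO with ERT2, and 5 higher and 11 lower with Cre-ERT2. Bach2, a repressor of the B lineage, stood at -0.63 and -0.72. Irf4 stood at -0.77 with ERT2, and Tcf7 at 0.92 with Cre-ERT2. Irf4 read 12.22 to 12.31 in ERT2 WT, 12.51 to 12.57 in Cre-ERT2 WT, 11.49 to 11.53 in ERT2 KO and 12.01 to 12.03 in Cre-ERT2 KO libraries. Of all genes, 59.0% and 58.9% were called in these comparisons.

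Among genes around Myc on chromosome 15, 10 of 16 listed had values. Trib1, a pseudokinase gene, read 9.03 to 9.11 in ERT2 WT, 9.36 to 9.47 in Cre-ERT2 WT, 10.18 to 10.25 in ERT2 KO and 10.71 to 10.76 in Cre-ERT2 KO libraries. It was higher in KO libraries as Myc was, by 1.14 and 1.33, and it rose with β-catenin, by 0.35 in WT (adjusted p = 2.27e-05) and 0.54 in KO cells (adjusted p = 3.06e-07), where Myc fell. Fam84b had log2 differences of -0.15 and -0.12 with β-catenin in WT and KO cells and of 0.33 and 0.35 for KO against WT, comparisons that share libraries. Pvt1, the noncoding neighbor of Myc, averaged 6.53 to 6.65. It was called for KO against WT in ERT2 libraries at 0.10 (adjusted p = 0.0222). That call was lost with each library centred on its median (adjusted p = 0.113) and under quantile normalization (0.01, adjusted p = 0.83). It was also lost in 3 fits that left out 1 library (highest adjusted p = 0.0883). Of the 10 genes, 2 were higher and 1 lower with β-catenin in each genotype, beside 11.9% of all genes called in WT and 12.6% in KO cells. With ERT2, 5 were higher and 4 lower in KO than in WT, beside 59.0% of all genes called. These were 4 and 4 with each library centred on its median, and 4 and 3 under quantile normalization. With Cre-ERT2, 3 were higher and 2 lower, beside 58.9%. These were 3 and 4 with each library centred on its median, and 3 and 1 under quantile normalization.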
